A study of Mus musculus with 16 samples.

Results

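The 10 genes described here make up the MHC class II antigen presentation pathway. They were chosen by gene symbol: H2-Aa, H2-Ab1, H2-Ea and H2-Eb1, which encode the class II chains, Cd74, H2-DMa, H2-DMb1, H2-DMb2 and H2-Oa, which govern peptide loading, and Ciita, their transcriptional coactivator. All 10 were found, among 53112 symbols in the tumour tables and 55290 in the tables of sorted cells. Messenger RNA of HM1 tumours, a transplantable mouse model of ovarian cancer, was sequenced in bulk in 16 libraries. Whole tumour tissue gave 5 control libraries and 5 libraries from tumours with mannose, a simple sugar given as a supplement. The remaining libraries are of CD8 T cells, the cytotoxic T cells, sorted from HM1 tumours without (3) or with mannose (3). The labels give neither the strain, age, dose and duration nor the animals behind the replicates, and p-values therefore rest on the spread among these libraries, which may be technical. An antibody against PD-1 is named in the title of the series, and the labels do not say whether any group received it.

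Class II molecules are pairs of an alpha and a beta chain that show peptides from swallowed proteins to CD4 T cells. The invariant chain, encoded by Cd74, guides newly made pairs to the endosome, where proteases trim it and H2-DM exchanges its last fragment for a peptide, under restraint by H2-O. Dendritic cells, macrophages and B cells are the main producers, and mouse T cells make little class II RNA. Ciita binds a complex of RFX, CREB and NF-Y factors on the X and Y boxes upstream of these genes, and interferon gamma induces it in many cell types.

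The upstream boxes are shown here as a feature of sequence that some of these genes share. Cd74, which lies on a different chromosome from the windows below, was left out of the match by gene, and its motifs are not given here. Of the 10 genes, 6 others matched an entry of the RefSeq promoter table (GRCm38.p6), which holds 300 bases per start site. The windows below are 80 bases long and are written 5′ to 3′ on the strand of the gene, with the matched letters in capitals. The search on both strands was for the X box joined to the X2 box (AACNGAT followed directly by GATG), the Y box (TGATTGG) and the palindromic cyclic AMP response element (TGACGTCA), none of which overlapped another in these windows.
H2-Eb1, chr17:34305756-34305835, plus strand: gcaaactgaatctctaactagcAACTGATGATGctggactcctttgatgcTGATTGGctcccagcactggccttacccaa
H2-DMb1, chr17:34153078-34153157, plus strand: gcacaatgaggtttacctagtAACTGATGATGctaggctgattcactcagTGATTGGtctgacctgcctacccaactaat
H2-DMb2, chr17:34145107-34145186, plus strand: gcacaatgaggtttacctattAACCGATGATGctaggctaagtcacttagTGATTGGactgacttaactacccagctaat
H2-Aa, chr17:34287844-34287923, minus strand: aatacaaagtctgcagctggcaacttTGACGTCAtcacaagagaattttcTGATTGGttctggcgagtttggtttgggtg
H2-Oa, chr17:34092284-34092363, plus strand: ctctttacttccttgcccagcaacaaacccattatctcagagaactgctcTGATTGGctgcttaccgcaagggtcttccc

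H2-Eb1, H2-DMb1 and H2-DMb2 held both the X box with its X2 box and the Y box, 17 bases apart in H2-Eb1 and 18 bases apart in the other two. H2-Aa held the palindrome 16 bases before its Y box, and H2-Oa held the Y box alone. The Y box began 61 bases before the start of H2-Eb1, 63 before H2-DMb1, 92 before H2-DMb2, 50 before H2-Aa and 45 before H2-Oa. Among all 32851 promoters of the table, 0.0609% held the X box letters, 7.82% the Y box letters and 1.79% the palindrome. Both boxes stood together in 7 promoters, or 0.0213%, whose symbols were H2-DMb1, H2-DMb2, H2-Eb1, Nubp2 and Spsb3. H2-DMa matched an entry that held none of the 3 motifs in its window. The motifs were spelled after these sequences had been read, so the matches are a description.

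Expression is given as TPM, an abundance that divides by transcript length and scales every library to a common total. Each mean is given with the SD over its libraries. The depth of sequencing is unknown; between 12345 and 14384 symbols reached 1 TPM. The 8 T cell markers summed to 2019 to 4193 TPM in the sorted libraries and to 5.55 to 79.3 TPM in the tumours. Several libraries stood apart or close together. In the use of T cell receptor beta V segments, CD8 control libraries 1 and 2 correlated at 0.999 and CD8 mannose libraries 1 and 2 at 0.995. The other pairs of CD8 libraries had 0.267 to 0.763. The highest of these crossed the groups, control 3 with mannose 1 (0.758) and mannose 2 (0.763). Within groups, control 3 had 0.298 and 0.309 with controls 1 and 2, and mannose 3 had 0.546 and 0.529 with mannose 1 and 2. Tumour control 1 and tumour mannose 3 had the lowest mean correlations with the other tumours, 0.947 and 0.960. The value columns in all 3 CD8 control tables carry headings of mannose samples, and groups here follow the labels. The direction of every CD8 difference below, and of its comparison with the tumours, rests on those labels.

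In whole tumours the class II chains were among the well-expressed genes, and their level varied several-fold between tumours of the same group. H2-Aa, the alpha chain of the I-A molecule, was measured at 249.7, 207, 516, 283 and 464 TPM in control tumours 1 to 5 and at 455, 324, 748, 191 and 286 TPM in mannose tumours 1 to 5. H2-Ab1, its beta chain partner, stood at 209.9, 212, 604, 269 and 512 TPM in the controls and at 466, 338, 753, 199 and 250.04 TPM with mannose. For both chains the lowest and the highest mannose tumour bracketed all of the controls, so the groups overlapped throughout.

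Cd74, the invariant chain, was the most abundant of the 10 in every library. Its control values were 864, 729, 2175, 918 and 1815 TPM, and its mannose values were 1602, 1197, 2592, 729 and 1025 TPM. Ciita, the coactivator, was read at 1.03, 3.39, 9.09, 4.24 and 7.95 TPM in controls and at 7.31, 6.41, 10.7, 3.38 and 3.31 TPM with mannose. Controls 3 and 5 and mannose tumours 1 and 3 were the high tumours for all 3 of H2-Aa, Cd74 and Ciita.

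By order of mean level in the control tumours, Cd74 (1300.3 ± 650 TPM, SD, n = 5) was followed by H2-Ab1 (361 ± 184), H2-Aa (344 ± 137), H2-Eb1 (303 ± 125), H2-Ea (64.7 ± 22.1) and H2-DMa (61.9 ± 26.3). H2-DMb2 (41.2 ± 18.6), H2-DMb1 (22.9 ± 10.1), Ciita (5.14 ± 3.33) and H2-Oa (1.93 ± 0.867) came last. Within 1 SD of their means, neighbours in that order overlapped from H2-Ab1 to H2-Eb1, between H2-Ea and H2-DMa, between H2-DMa and H2-DMb2, between both H2-DMb genes, and between Ciita and H2-Oa. In mannose tumours H2-Ab1 (401 ± 221, n = 5) and H2-Aa (401 ± 216) had nearly the same mean, and Cd74 (1429 ± 723) stood above and H2-Oa (2.11 ± 0.685) below all others.

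Whether mannose changed these genes in whole tumours was tested with limma on log2(TPM + 1), with Benjamini-Hochberg adjustment over 13282 genes. None of the 10 genes passed an adjusted p of 0.05, and none of all 13282 did (0% called). Of the 13282, 827 had an unadjusted p under 0.05, 735 higher and 92 lower with mannose. That split depended on scaling, with 302 higher and 444 lower under quantile normalization. The mean of each of the 10 was slightly higher with mannose, with log2 differences from 0.07 ± 0.36 (SE) for H2-Eb1 to 0.34 ± 0.43 for Ciita and adjusted p from 0.849 to 0.966 (limma, n = 5 and 5). Their median log2 difference was 0.16, and that of all genes was 0.12. No member had groups that did not overlap, against 1.63% of all genes tested. The sign depended on which libraries were included. Without both control 1 and mannose 3, the tumours with the lowest mean correlations, all 10 differences were negative. They ran from −0.29 for H2-Ab1 to −0.05 for H2-DMb2. Mannose 3 also had the highest mean log2(TPM + 1) of the 10 genes among the 10 tumours (7.11). Control 1 (5.57) lay below the control mean (6.06), so leaving out both lowers the difference by itself.

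In the sorted CD8 libraries all 10 genes were lower with mannose, with control means 3.73 to 4.77 times the mannose means for the 4 class II chains. H2-Aa was present at 1095, 1053 and 1067 TPM in CD8 control libraries 1 to 3 and at 248, 199 and 267 TPM in the mannose libraries. H2-Ab1 was present at 693, 782 and 811 TPM in controls and at 167, 137 and 175 TPM with mannose. The replicates lay close together in each group and the lowest control was far above the highest mannose library. The log2 difference was −2.18 ± 0.11 (SE; adjusted p = 2.0e-04, limma) for H2-Aa and −2.25 ± 0.11 (adjusted p = 2.0e-04) for H2-Ab1. These 2 genes encode the I-A molecule, and they fell together.

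**Figure D1:**
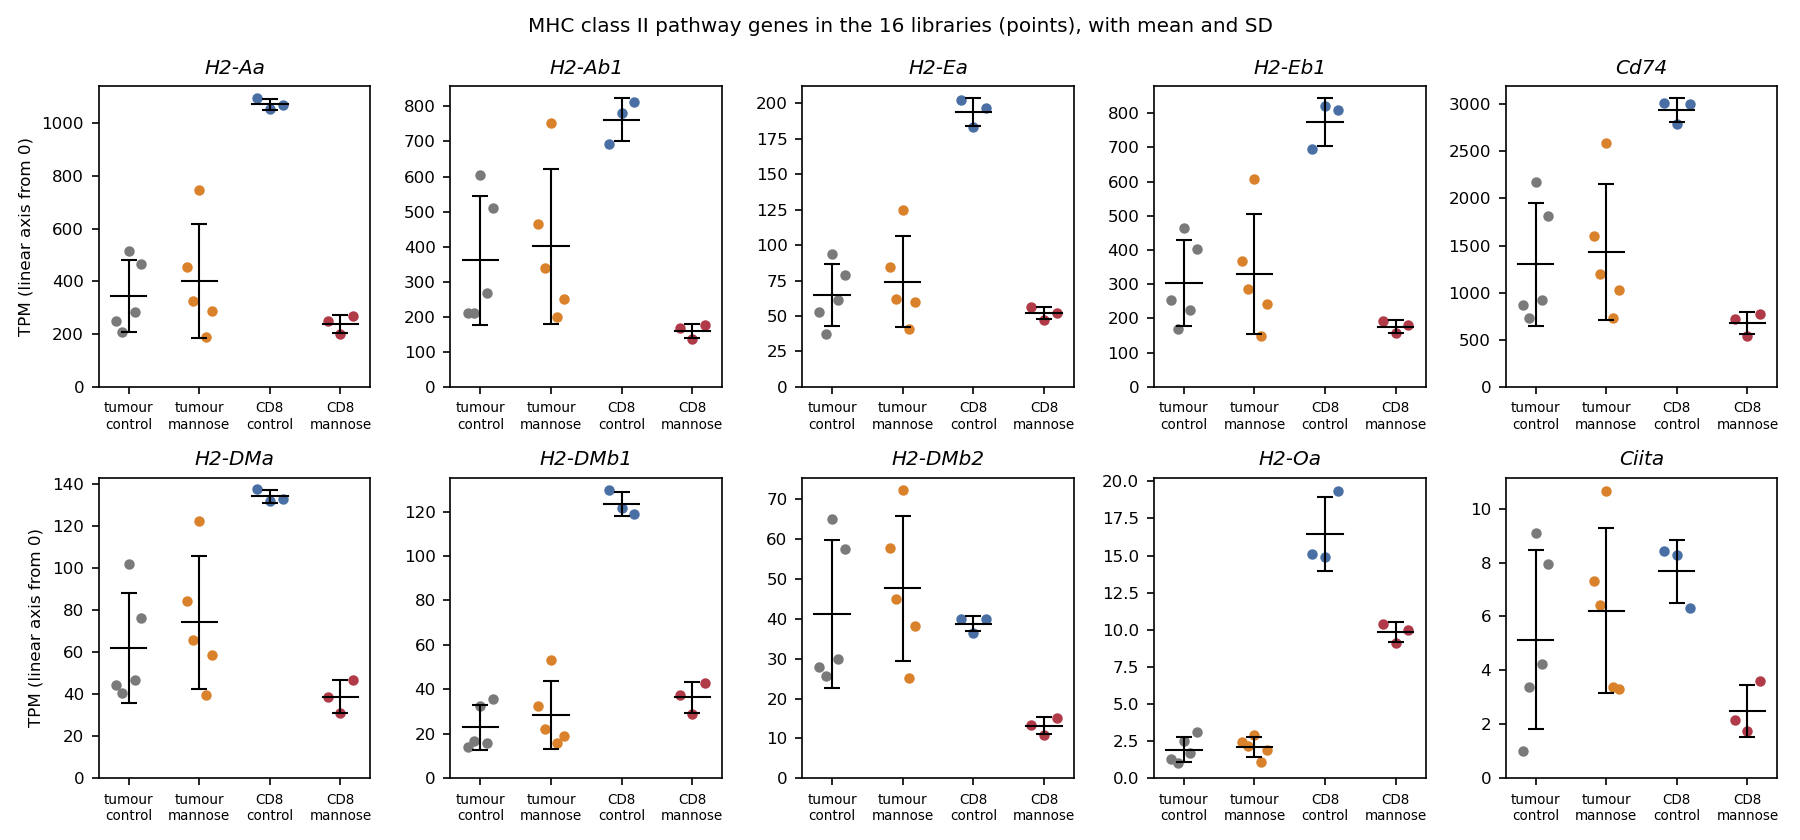
TPM of the 10 genes (vertical axes, linear from 0, a separate scale per gene) in each library (points) of the 4 groups, with the group mean and SD (bars). Tumour groups overlap for every gene, while each CD8 control library lies above every CD8 mannose library, as for H2-Aa at 1053 TPM or more against 267 TPM or less.

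The chains of the I-E molecule followed the same pattern. H2-Eb1, the beta chain, stood at 695, 821 and 810 TPM in CD8 controls and at 192, 156 and 180 TPM with mannose, a log2 difference of −2.13 ± 0.11 (limma, adjusted p = 2.0e-04). H2-Ea, the alpha chain, stood at 202, 183 and 197 TPM in controls and at 56.5, 47.4 and 52.5 TPM with mannose, a log2 difference of −1.88 ± 0.09 (adjusted p = 2.0e-04). RefSeq lists H2-Ea as a transcribed pseudogene in the C57BL/6J reference strain, and the strain of these animals is not given. In no library did the beta chain or the alpha chain depart from the order of the groups seen for I-A.

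Cd74, whose product chaperones these chains, was measured at 3019, 2788 and 3007 TPM in CD8 controls and at 719, 543 and 769.8 TPM with mannose. Its log2 difference was −2.13 ± 0.14 (limma, adjusted p = 2.4e-04), so that it fell by about as much as the chains. Mif, a cytokine for which CD74 is a receptor, had 1115 ± 109 TPM in controls and 1037 ± 41.8 with mannose (n = 3, limma adjusted p = 0.439). Of the 5 genes of a list of MIF and its receptor partners, 3 fell, none rose and 2 were not called; with the alike libraries 1 and 2 of each group averaged, none was called.

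Of the peptide editors, H2-DMa, the alpha chain of H2-DM, had 138, 132 and 133 TPM in CD8 controls and 38.8, 31.1 and 46.6 TPM with mannose. H2-DMb1, a beta chain of H2-DM, had 129, 122 and 119 TPM against 37.3, 29.0 and 43.1 TPM. The log2 differences were −1.78 ± 0.14 for H2-DMa (limma, adjusted p = 5.3e-04) and −1.75 ± 0.14 for H2-DMb1 (adjusted p = 5.85e-04). H2-DMb2, the second beta chain gene, had 40.0, 36.5 and 39.9 TPM against 13.5, 10.95 and 15.1 TPM, with a difference of −1.50 ± 0.13 (adjusted p = 8.1e-04). The H2-DM genes therefore fell with no overlap between groups, by less on this scale than the I-A chains.

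H2-Oa, the alpha chain of the H2-DM inhibitor H2-O, changed least. It had 15.1, 14.9 and 19.3 TPM in CD8 controls and 10.4, 9.10 and 10.02 TPM with mannose, a log2 difference of −0.68 ± 0.14 (limma, adjusted p = 0.0099). Its beta chain partner H2-Ob, which is not among the 10, did not pass the filter on low values in the CD8 libraries, with 1.21 ± 0.384 TPM in controls and 0.677 ± 0.276 with mannose (n = 3). Ciita had 8.42, 8.29 and 6.32 TPM in controls and 2.15, 1.77 and 3.60 TPM with mannose, a difference of −1.33 ± 0.23 (adjusted p = 0.00564). Both genes kept separate groups, and both lost the call when the alike CD8 libraries 1 and 2 were averaged in each group, with adjusted p = 0.0708 for Ciita and 0.0710 for H2-Oa (limma).

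All 10 genes were thus called lower in the CD8 libraries, where 34.9% of 14280 genes were called and 11.7% were called lower. Groups did not overlap with mannose lower for 10 of 10, against 18.1% of all genes tested. Their median log2 difference was −1.83, and that of all genes was 0.09. With quantile normalization 2697 genes were called higher and 2299 lower, against 3306 and 1674 on the TPM as deposited. With median-ratio scaling these were 2749 and 2326. In each of these scalings the 10 genes were called lower. In bulk RNA, fewer cells of a type and less RNA per cell cannot be told apart.

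The effect of mannose in the CD8 libraries was set against that in the tumours by an interaction term in a limma fit of all 16 libraries. This difference passed for 8 of the 10 genes, against 18.7% of 15498 genes and 7.64% in the lower direction. It was −2.39 on the log2 scale for H2-Ab1 (adjusted p = 0.0078), −2.33 for H2-Aa (adjusted p = 0.00466), −2.27 for Cd74 (adjusted p = 0.00787) and −1.73 for H2-DMb2 (adjusted p = 0.0164). Ciita at −1.67 (adjusted p = 0.0757) and H2-Oa at −0.79 (adjusted p = 0.111) did not pass. Leaving out each library in turn gave 7 to 9 genes, while 1884 to 4010 of all genes were called. These fits count the alike CD8 libraries 1 and 2 of each group as separate. No interaction fit averaged them, so its p-values may be too small.

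**Figure D2:**
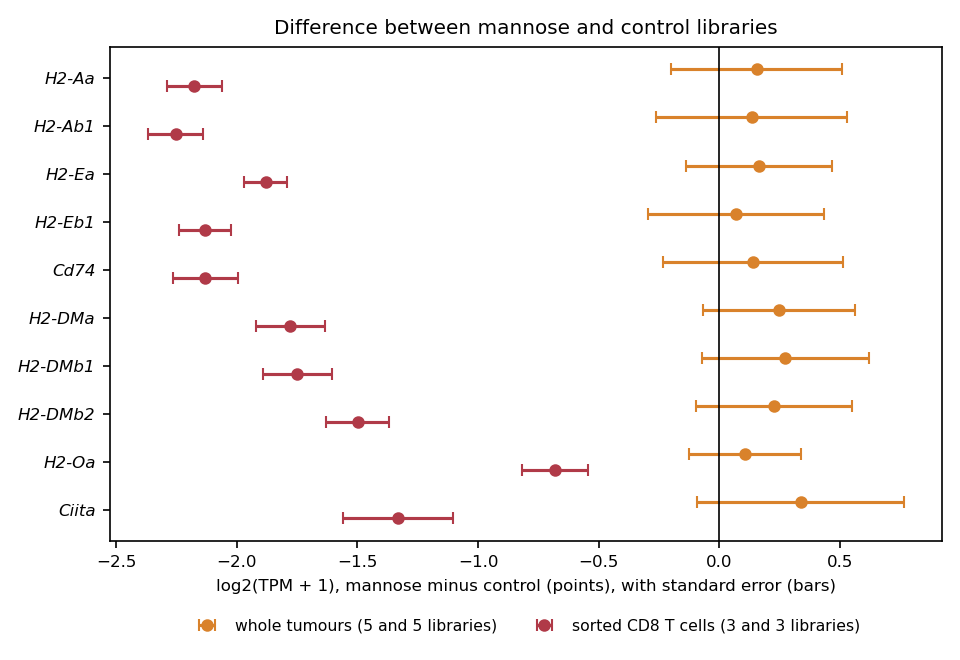
Log2 difference between mannose and control libraries (horizontal axis, on log2(TPM + 1)) for the 10 genes, with its standard error, in whole tumours and in sorted CD8 T cells. Differences lie between 0.07 and 0.34 in the tumours and between −2.25 and −0.68 in the CD8 libraries, where H2-Oa is nearest to 0.

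Levels in both kinds of library can only be set side by side, since the tables were made with different sets of entries. The 10 genes summed to 5939 to 6209 TPM in the CD8 control libraries and to 1165 to 1562 TPM in the CD8 mannose libraries. In control tumours the sum was 1443 to 4065 TPM, and in mannose tumours 1392 to 5087 TPM. The sorted control libraries thus held a larger share of class II RNA than any tumour, and the sorted mannose libraries were near the lowest tumours.

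This order did not extend to every gene. H2-Oa was higher in each CD8 library (9.10 to 19.3 TPM) than in each tumour (1.03 to 3.10 TPM), and H2-DMb2 was lower in each CD8 mannose library than in each tumour. H2-DMb2 exceeded H2-DMb1 in the tumours, at 180 ± 22.3 TPM per 100 TPM of H2-DMb1 in controls (n = 5) and 175 ± 29.0 with mannose (n = 5). In the CD8 libraries it was below H2-DMb1, at 31.5 ± 1.86 in controls (n = 3) and 36.3 ± 1.39 with mannose (n = 3). These near-identical genes share sequence: 27.2% of the 50-base windows of H2-DMb1 transcripts and 21.2% of those of H2-DMb2 occur in the other. The division of reads between both genes is therefore uncertain, and it may differ between the tables. Summed into 1 gene before the fit, H2-DMb1 and H2-DMb2 fell by 1.70 on the log2 scale in the CD8 libraries (limma, adjusted p = 5.3e-04) and had a difference of 0.25 in the tumours (adjusted p = 0.853). Their sum per 100 TPM of H2-DMa was 103 in both tumour groups, 121 in CD8 controls and 128 in CD8 mannose libraries. On average the sum was thus nearest to the level of the alpha chain in the tumours, and it was above it in each CD8 library, and the CD8 groups did not overlap.

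Proportions within a library do not depend on its total. For some pairs the CD8 groups overlapped: Cd74 stood at 274 ± 8.67 TPM per 100 TPM of H2-Aa in controls and 284 ± 9.56 with mannose, and H2-Ab1 at 71.2 ± 6.94 and 67.2 ± 1.54 (n = 3 each). In the tumours Cd74 stood at 367 ± 38.8 in controls and 362 ± 14.3 with mannose (n = 5 each), and those groups overlapped too.

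For other pairs the CD8 groups did not overlap. Among the chains, H2-Ea had 29.1, 22.3 and 24.3 TPM per 100 TPM of H2-Eb1 in CD8 controls 1 to 3 and 29.3, 30.3 and 29.2 with mannose, so that control 1 lay just below the mannose libraries. H2-DMa had 12.5 ± 0.061 TPM per 100 TPM of H2-Aa in CD8 controls and 16.2 ± 1.06 with mannose, and H2-Oa had 12.3 ± 1.97 and 25.8 ± 3.97 per 100 TPM of H2-DMa (n = 3 each). Ciita had 0.716 ± 0.108 per 100 TPM of H2-Aa in controls and 1.03 ± 0.272 with mannose, and every mannose library was above every control. These proportions are given as values and were not tested. In the tumours H2-Oa per 100 TPM of H2-DMa was 3.13 ± 0.692 in controls and 2.93 ± 0.369 with mannose, and Ciita per 100 TPM of H2-Aa was 0.412 in control 1, the lowest of the 10 tumours.

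**Figure D3:**
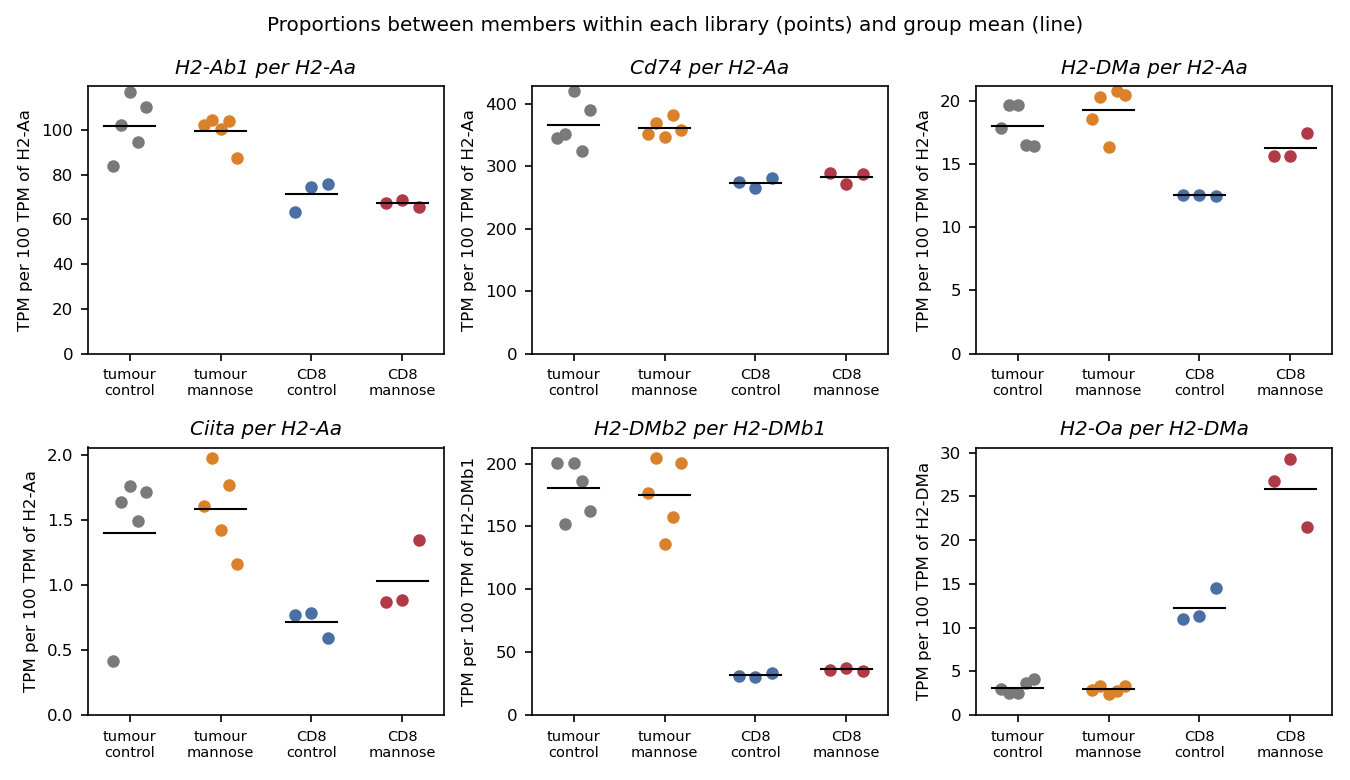
Level of a gene per 100 TPM of another (vertical axes, linear from 0) in each library (points), with the group mean (line), for 6 pairs of genes. H2-DMb2 is above H2-DMb1 in all tumours and below it in all CD8 libraries, and H2-Oa per H2-DMa has means of 3.13, 2.93, 12.3 and 25.8 across the 4 groups.

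The 10 genes varied together from tumour to tumour. Each gene was correlated with the mean of the other 9 on log2(TPM + 1) over the 10 tumours. The Pearson r ran from 0.848 for Ciita to 0.993 for H2-Ab1. These tumours share their normalization and may differ in cell content, and why the genes varied together was not tested. Control 1, where Ciita was lowest, had the lowest Ciita in proportion to the chains. Outside the 10, 9416 genes at a mean of at least 5 TPM were ranked by r with the mean level of the 10. The highest over these tumours were Plekhf1 (r = 0.980), Coro1a (0.975), Hcls1 (0.964), Ifi30 (0.963) and Dbnl (0.953). Plekhf1 ranged only from 5.26 to 7.61 TPM. The 6 CD8 libraries form 2 separate groups, so that r over them mainly reflects the gap between those groups. There the genes most like the mean level of the 10 were Slc7a8, Fcer1g, Pira12, Ctss and Alox5ap, each with r = 0.999.

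None of the factors that bind the X and Y boxes was called in the CD8 libraries. The list holds 7 genes, for RFX and NF-Y subunits and Creb1, and their median log2 difference was −0.03. Rfx5, whose product binds the X box, had 16.5 ± 0.433 TPM in controls and 16.8 ± 4.73 with mannose (n = 3, limma adjusted p = 0.979). None was called in the tumours, where their median was 0.26.

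Of 10 genes for peptide loading and class II turnover, 7 fell in the CD8 libraries, 2 rose and 1 was not called, with a median log2 difference of −0.65. Ctss, the protease that trims the invariant chain in antigen-presenting cells, went from 846 ± 28.6 TPM to 226 ± 25.3, a difference of −1.91 (n = 3, limma adjusted p = 2.0e-04). Ifi30, a lysosomal thiol reductase, went from 332 ± 3.20 to 105 ± 13.3 TPM, a difference of −1.66 (adjusted p = 2.3e-04). Marchf1, a ubiquitin ligase that removes class II from the surface, went from 8.62 ± 1.13 to 2.73 ± 0.583 TPM (−1.37, adjusted p = 0.00255).

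The lysosomal proteases were divided. Ctsl, which trims the invariant chain in thymic epithelium, rose from 529 ± 73.0 to 1073 ± 267 TPM (n = 3, limma adjusted p = 0.0105). Ctsb went from 696 ± 47.8 to 430.4 ± 8.22 TPM (adjusted p = 0.00165) and Ctsd from 887 ± 40.6 to 586 ± 88.2 TPM (adjusted p = 0.00778). Scaling the libraries to their T cell markers moved the median log2 difference of all genes from 0.09 to 0.74, and the differences of Ctsb (0.035) and Ctsd (0.12) were then above 0 and below that median. With the alike CD8 libraries averaged, 5 of the 10 genes fell and 1 rose, and Ctsl (adjusted p = 0.0801) and Ctsd (adjusted p = 0.0935) lost their calls. In the tumours none of the 10 was called, and their median was 0.28.

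Interferon gamma signalling genes were called lower in 2 of 8 cases in the CD8 libraries and never higher, with a median of −0.56. Ifng itself had 128 ± 21.6 TPM in controls and 80.9 ± 48.8 with mannose (n = 3, limma adjusted p = 0.144). It reached the threshold without mannose library 3 (adjusted p = 0.00445). Ifngr1, a receptor chain, went from 461 ± 29.4 to 284 ± 74.7 TPM (adjusted p = 0.0216) and lost the call in 4 of the 6 fits that left out a library.

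A list of T cell surface proteins that bind class II held 2 genes, Cd4 and Lag3. Cd4, the coreceptor of helper T cells, went from 13.7 ± 1.00 to 5.93 ± 0.802 TPM (n = 3, limma adjusted p = 0.00239), and Lag3 had 328 ± 42.6 and 219 ± 83.4 TPM (adjusted p = 0.0871). All 4 costimulatory genes of antigen-presenting cells fell, with a median of −1.81. Cd40 went from 31.4 ± 4.44 to 4.11 ± 0.727 TPM (adjusted p = 2.4e-04), Cd80 from 65.1 ± 4.30 to 17.8 ± 2.19 TPM (adjusted p = 2.4e-04) and Cd86 from 53.7 ± 2.94 to 16.1 ± 8.49 TPM (adjusted p = 0.00642). With the alike libraries averaged 2 of these 4 were called lower, Cd86 being lost (adjusted p = 0.0563).

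MHC class I genes, which are made by nearly all cells, differed less. In the CD8 libraries 3 of 9 fell and none rose, with a median log2 difference of −0.35 beside −1.83 for the class II genes, and with the alike libraries averaged none of the 9 was called. H2-K1 had 5003 ± 310 TPM in controls and 4335 ± 719 with mannose (n = 3, limma adjusted p = 0.232), and B2m, the light chain of class I, had 5432 ± 106 and 5110 ± 95.6 TPM (adjusted p = 0.385).

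Markers of class II-bearing cells were present in the sorted libraries and moved with the class II genes. Of 10 macrophage markers, 9 fell and 1 was not called, with a median log2 difference of −1.87. Their summed level was 2052 to 2282 TPM in CD8 controls and 524 to 637 TPM with mannose. C1qa, a complement subunit made by macrophages, went from 576 ± 63.4 to 168 ± 21.7 TPM (n = 3, limma adjusted p = 3.0e-04), and Cd68, a lysosomal marker, from 287 ± 17.4 to 75.1 ± 11.3 TPM (adjusted p = 2.4e-04).

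Of 10 dendritic cell markers, 9 were tested, 6 fell and 3 were not called, with a median of −0.83 and a summed level of 566 to 799 TPM in controls and 248 to 445 TPM with mannose. Itgax, an integrin of dendritic cells and macrophages, went from 73.9 ± 6.54 to 17.7 ± 1.71 TPM (n = 3, limma adjusted p = 2.3e-04). B cell markers were near 0: of 7 genes 2 could be tested and both fell, the sum was 6.04 to 10.3 TPM in controls and 2.91 to 3.85 TPM with mannose, and Ms4a1, Fcer2a and Pax5 were each at or under 0.06 TPM in every CD8 library. Of 6 neutrophil markers tested, 5 fell. With the alike libraries 1 and 2 averaged in each group, 9 of 10 macrophage markers were still called lower, but 1 of 9 dendritic cell markers and 2 of 6 neutrophil markers, in a fit that called 1652 genes of all kinds against 4980.

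Markers of T cells and of carcinoma cells were measured in the same libraries. Of 8 T cell markers 2 fell, none rose and 6 were not called, with a median of −0.65 (8 fell under median-ratio scaling and none with alike libraries averaged), and Cd3e, a T cell receptor subunit, had 588 ± 30.2 and 393 ± 143 TPM (n = 3, limma adjusted p = 0.0740). Of 4 carcinoma markers tested, 3 keratins rose and 1 gene fell, and the summed level of the 8 listed was 237 to 530 TPM in controls and 1608 to 2459 TPM with mannose. Of 7 fibroblast markers 6 rose, and of 7 endothelial markers 4 rose, though none of either list was called with alike libraries averaged. The part of the RNA of these cell types in the class II difference was not tested. Against T cell RNA, H2-Aa stood at 182 ± 5.81 TPM per 100 TPM of Cd3e in controls and 65.1 ± 22.4 with mannose, while H2-Oa stood at 2.80 ± 0.440 and 2.73 ± 0.997. With each CD8 library scaled to its 8 T cell markers (median of all genes 0.74), 8 of the 10 genes were called lower. Of all 14280 genes, 341 were called lower and 6101 higher in that fit. The log2 difference was −0.76 for Ciita (limma, adjusted p = 0.0564) and −0.0044 for H2-Oa (adjusted p = 0.991).

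With each CD8 library scaled instead to its 10 macrophage markers, the log2 differences of H2-DMa, H2-DMb1, H2-DMb2, Ciita and H2-Oa were above 0, at 0.072, 0.10, 0.30, 0.17 and 1.06. Those of the class II chains and Cd74 stayed below 0, from −0.38 for H2-Ab1 to −0.021 for H2-Ea. That scaling lifts all genes together, to a median log2 difference of 1.78 over all genes, and all 10 stayed below that median. It was made with no test. In the tumours none of 10 macrophage markers was called, their median difference was 0.54, and their sum was 872 to 1749 TPM in controls and 1062 to 2678 TPM with mannose.

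**Figure D4:**
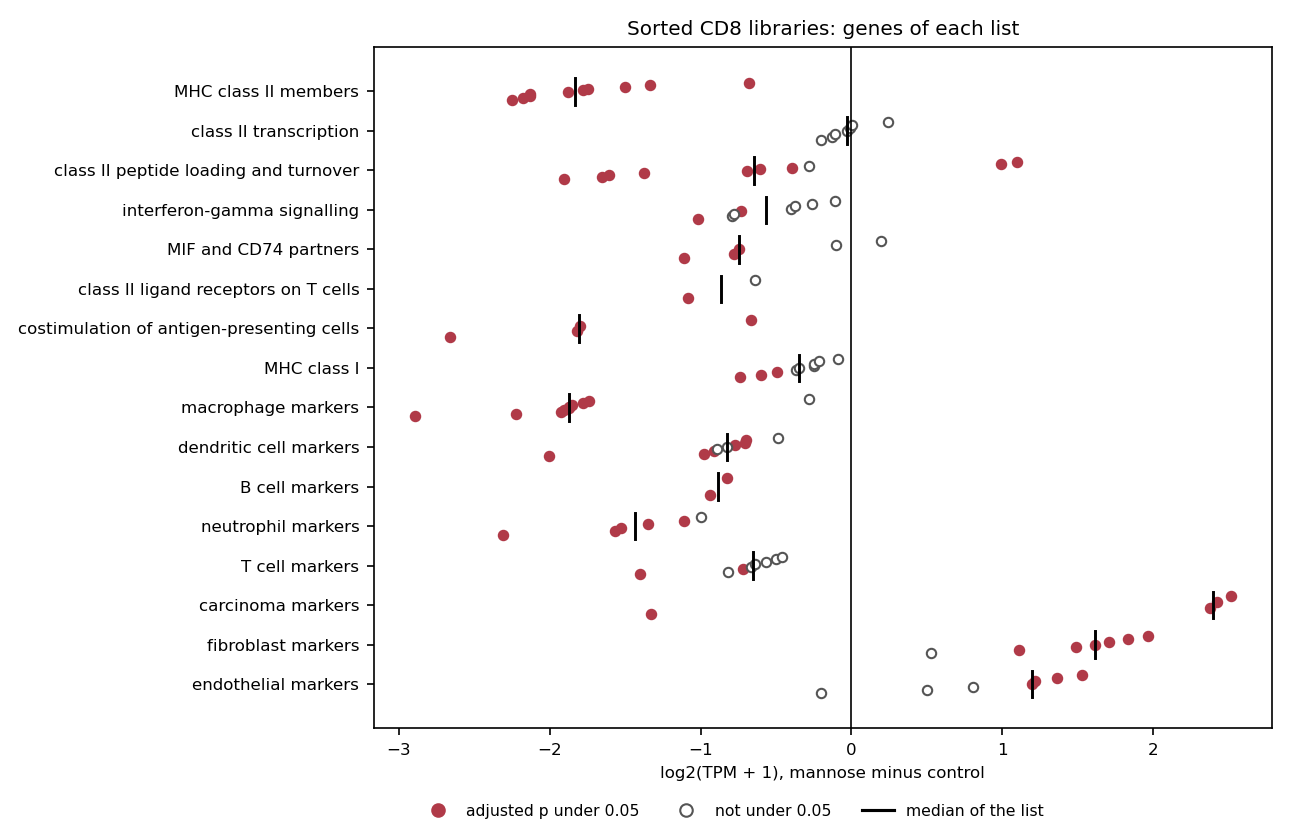
Log2 difference between CD8 mannose and CD8 control libraries (horizontal axis, on log2(TPM + 1)) for each tested gene (points) of the 10 class II genes and the lists beside them, with filled points for adjusted p under 0.05 and the median of each list (vertical line). The class II genes (median −1.83), macrophage markers (−1.87) and costimulatory genes (−1.81) lie lowest, and the X and Y box factors (−0.03) lie at 0.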

How the data were processed

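The authors deposited 1 table of TPM per library, with gene symbols. Per the submitters' processing notes, fastp, HISAT, RSEM and the build GRCm39 were used; versions and annotation release are not given in the sources used here. Entries sharing a symbol were summed (54013 entries per tumour table, 55438 per CD8 table). TPM carries no read totals, so precision could be judged from replicates only. Mannose was compared with control in each tissue with limma 3.58.1 (R 4.3.3, variance trend) on log2(TPM + 1). Genes entered if they reached 1 TPM in a number of libraries equal to the smaller group. The interaction used 52916 shared symbols with at least 1 TPM in 3 libraries. P-values were adjusted by Benjamini-Hochberg, threshold 0.05, and the fits were tested on simulated data. The genes and 16 further lists were chosen with earlier results of these data known. Named beside the 10 genes were up to 4 genes per list, by mean TPM, some fixed by name, and the 5 most alike genes per tissue; some of these genes are not reported here. Alternatives changed the pseudocount, filter, scaling, replicate block and libraries. Promoter sequences are RefSeq's. Shared windows came from GENCODE M21 transcripts. Figures were drawn with matplotlib 3.10.9.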

Additional observations from a re-analysis of the deposited data

Results flagged for a closer look

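For 8 of the 10 genes the effect of mannose in the sorted CD8 libraries differed from that in whole tumours by the interaction test in limma. Of all genes tested, 18.7% were called, 7.64% in the lower direction. The alike CD8 libraries 1 and 2 of each group counted as separate in that test. It was not repeated with them averaged. The difference of the effects (CD8 minus tumour, log2) was −2.33 for H2-Aa, −2.39 for H2-Ab1, −2.20 for H2-Eb1, −2.05 for H2-Ea, −2.27 for Cd74, −2.03 for H2-DMa, −2.02 for H2-DMb1 and −1.73 for H2-DMb2, with adjusted p from 0.00354 to 0.0164 after Benjamini-Hochberg adjustment. In the CD8 libraries 3 of 3 mannose libraries lay below every control for each of these genes, as for 18.1% of all genes tested there. No library stood out from its group of 5 tumours for any of the 10 genes by Dixon's criterion.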

How the results depend on the processing

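In whole tumours no setting called a member, and genes called overall were 0 to 1 when a library was left out (1 without mannose 4). Leaving out each library in turn kept H2-DMa, H2-DMb1 and H2-DMb2 above 0 (lowest 0.043, 0.021 and 0.058), while the others crossed 0, with log2 differences of −0.11 to 0.38 for H2-Aa, −0.13 to 0.36 for H2-Ab1, −0.19 to 0.32 for H2-Eb1, −0.046 to 0.35 for H2-Ea, −0.11 to 0.36 for Cd74, −0.0096 to 0.57 for Ciita and −0.014 to 0.24 for H2-Oa. Without control 1 and mannose 3 the values were −0.20, −0.29, −0.23, −0.10, −0.22, −0.21 and −0.063 in that order, and −0.051 for H2-DMa, −0.12 for H2-DMb1 and −0.051 for H2-DMb2. H2-Eb1 was −0.047 under median-ratio scaling and H2-Oa −0.074 under quantile normalization.

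In the CD8 libraries all 10 members stayed called in each of the 6 fits that left out a library. Leaving out library 1 or 2 of a group kept its alike partner, so those fits are a weak check. With alike libraries averaged, 8 of the 10 members were called, and Ciita and H2-Oa were not. Among all genes, 2803 to 6119 were called when a library was left out, against 4980 in the main fit. The count was 2803 without mannose 2 and 3068 without mannose 1. The fit with alike libraries averaged called 1652 genes. Scaling to T cell markers changed the mean class II difference from −1.76 to −1.06, moved the median of all genes to 0.74, called 6101 genes higher and 341 lower, and put above 0 Ctsb (0.035), Ctsd (0.12), Lag3 (0.081), H2-K1 (0.51), B2m (0.64), Cd3e (0.085), Mif (0.63) and Rfx5 (0.67). Scaling to macrophage markers, with a median of 1.78 over all genes, gave Ciita 0.17, H2-DMa 0.072, H2-DMb1 0.10, H2-DMb2 0.30 and H2-Oa 1.06. Rfx5 was −0.22 to 0.10 without single libraries and 0.091 with alike libraries averaged. Both marker scalings were chosen after seeing the data.

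The interaction called 8 members, 7 without CD8 mannose 2 (H2-DMb2, adjusted p = 0.0501, limma) and 9 without tumour control 3 or under either other scaling. Of all genes, 2896 of 15498 were called in the main fit and 2028 of 15374 without CD8 mannose 2. Without tumour control 3 it was 2850 of 15433, with quantile normalization 3754 and with median-ratio scaling 3639 of 15498. The interaction was not fitted with alike libraries averaged. With a block for the replicate number, limma called 0 members in tumours, 10 in CD8 and 8 in the interaction. Of all genes, that block gave 0 of 13282 in tumours, 4838 of 14280 in CD8 and 2493 of 15498 in the interaction. In the lower direction these were 1686 in CD8 and 1026 in the interaction. Same-numbered libraries deviated together at r from −0.511 to 0.280 in tumours and from 0.057 to 0.163 in CD8, so the numbers were not taken to pair them. The cause of these changes was not tested. Read depth is unknown and sets the precision of low genes such as H2-Oa and Ciita.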
